A study of Mus musculus with 6 samples.

Results

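The 42 interferon-stimulated genes described here were taken from a list of gene symbols covering the transcription factors, sensors and antiviral effectors of the interferon response. All 42 were found by symbol among the 78275 genes of the count table, and all 42 were among the 16105 genes with enough counts to be tested. The T cells were CD4-CD8+ and TCRβ-high, sorted from 3 WT mice and from 3 BIT mice, and each mouse gave 1 library. WT mice were on the C57BL/6 (B6) background. BIT mice were B6 mice homozygous for an allele in which the sequence coding for the proteasome subunit β5t (Psmb11) was placed in exon 1 of Psmb8, at the site where translation of the subunit β5i begins, so that cells that normally make β5i were designed to make β5t. The labels give all mice as males of 9 to 10 weeks, and they do not say which BIT line supplied these mice. The study also made lines with another design of the allele, in which Psmb11 replaced more of Psmb8. Unless it stated otherwise it used 1 line, with the exon 1 design described here. The tissue is labelled as lymph nodes, while the extraction notes name lymph nodes and spleens. The comparison asks how the genotypes differ in the interferon-stimulated genes of their CD8 T cells, and how far mice of 1 genotype differ among themselves.

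Type I interferons bind a receptor made of Ifnar1 and Ifnar2, whose kinases Jak1 and Tyk2 set off the assembly of a complex with Stat2 and Irf9. The complex binds the interferon-stimulated response element in promoters and turns on genes that block viral replication, sense viral nucleic acids or limit the signal itself. Resting T cells keep a low level of these genes, and type II interferon acts on some of them, the guanylate-binding proteins above all, through the gamma-activated site. Psmb8 is itself induced by interferon.

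The genotype labels were checked first on the edited gene. Psmb8 was at 204, 205 and 201 CPM (the deposited counts of a gene per 1000000 counts of its library) in WT mice and at 1.63, 1.40 and 1.60 CPM in BIT mice. Psmb11 had 0 counts in every WT mouse and 43.0, 41.7 and 32.7 CPM in BIT mice. Total counts were between 37467678 and 52922675 per library, and a count of 0 allows up to 0.0567 to 0.0801 CPM. The 7 markers of CD8 T cells (Cd8a, Cd8b1 and the general T cell genes Cd3d, Cd3e, Cd3g, Cd5 and Lck) summed to between 4112 and 4552 CPM. The 4 markers of CD4 T cells (Cd4, Zbtb7b, Cd40lg and Foxp3) summed to between 3.22 and 5.68 CPM. In the library labelled WT 3, Xist had 66626 counts, where it had 2 to 125 elsewhere, and the sum of the Y-linked genes Ddx3y, Uty, Kdm5d and Eif2s3y was 0, where it was 8474 to 12329 elsewhere. It therefore does not match its label of a male mouse, and several of the counts over the 42 genes are also given without it. On the first principal component of all genes tested, which held 34.4% of the variance, both mice numbered 3 lay apart from the others.

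The binding site of the pathway was looked for in the promoters before the expression values. RefSeq promoters (assembly GRCm38.p6, 250 bases before to 50 bases after the start of transcription) were at hand for 31 of the 42 genes, 36 promoters in all. The core of the interferon-stimulated response element, written as GAAANNGAAA and searched on both strands, was in the promoters of 19 of these 31 genes (61.3%), against 3.99% of the 27025 genes in the promoter table. The gamma-activated site, TTCNNNGAA, was in 7 of the 31 (22.6%), against 9.55% of all genes, and 5 held both. Overlapping matches were each counted. A match is a description of the letters, not evidence of binding. The 160 bases before the start are shown for the 5 genes with the largest spread among mice, among those described one by one below that hold the core in this stretch. The cores are in capitals, and positions count back from the start.

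The Isg15 stretch lies at chr4:156200819-156200978 on the minus strand and holds 3 overlapping cores, at -78, -72 and -66, which read as 1 run.
Isg15: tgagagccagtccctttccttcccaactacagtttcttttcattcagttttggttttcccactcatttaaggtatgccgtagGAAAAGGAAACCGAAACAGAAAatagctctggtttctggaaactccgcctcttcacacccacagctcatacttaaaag
The Ifit1 stretch lies at chr19:34640729-34640888 on the plus strand, with cores at -104 and -85 in reverse orientation, as are those of the stretches that follow.
Ifit1: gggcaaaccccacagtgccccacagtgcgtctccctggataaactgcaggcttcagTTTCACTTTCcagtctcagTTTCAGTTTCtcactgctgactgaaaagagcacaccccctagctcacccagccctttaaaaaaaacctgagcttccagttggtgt
The Rsad2 stretch lies at chr12:26456453-26456612 on the minus strand, with 1 core at -120.
Rsad2: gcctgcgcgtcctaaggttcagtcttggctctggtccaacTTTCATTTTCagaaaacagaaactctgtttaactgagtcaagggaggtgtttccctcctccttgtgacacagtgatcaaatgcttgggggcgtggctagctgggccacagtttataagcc
The Ifit3 stretch lies at chr19:34583369-34583528 on the plus strand, with cores at -156 and -122.
Ifit3: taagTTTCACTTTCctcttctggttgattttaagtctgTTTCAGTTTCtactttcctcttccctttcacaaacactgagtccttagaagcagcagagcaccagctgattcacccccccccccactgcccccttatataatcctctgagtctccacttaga
The Ifit3b stretch lies at chr19:34607797-34607956 on the plus strand, with 1 core at -154 inside it and a further core upstream, at -188.
Ifit3b: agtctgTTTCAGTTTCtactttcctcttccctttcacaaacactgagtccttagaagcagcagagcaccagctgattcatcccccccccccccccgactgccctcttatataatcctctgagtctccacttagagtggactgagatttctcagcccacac

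All 42 genes were present in the RNA of sorted CD8 T cells, at levels that differed widely. The mean over the 6 mice was between 1.64 CPM (Ifi44) and 342 CPM (Dtx3l), and the lowest single count was 28. Per kilobase of exon (all annotated exons of a gene merged), the median level was 8.61 CPM per kilobase, and the range was 0.267 to 59.9. The 5 highest per kilobase were Gbp2 (59.9), Dtx3l (59.8), Slfn8 (45.5), Ifi27l2a (37.7) and Samd9l (37.1). Gbp2 and Dtx3l, and likewise Ifi27l2a and Samd9l, lay closer together than the spread of each among mice. At the other end stood Mx1 (1.55), Oas2 (1.43), Oas1a (1.31), Mx2 (0.782) and Ifi44 (0.267).

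**Figure D1:**
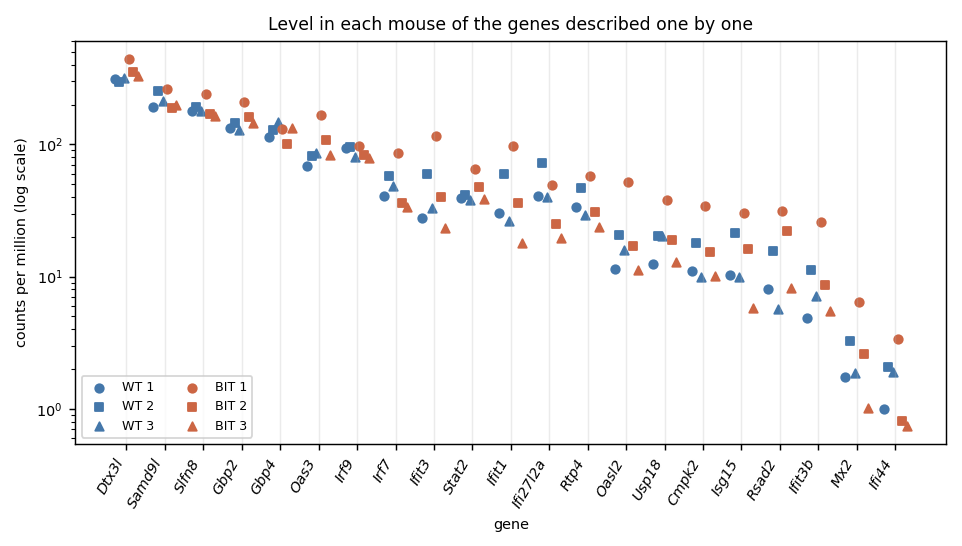
CPM (log scale) of the 21 interferon-stimulated genes described one by one, ordered by mean level, with 1 point per mouse (blue, WT; orange, BIT; circle, square and triangle for mice 1, 2 and 3). In most genes the orange circle, BIT mouse 1, stands highest, and Gbp4 and Ifi27l2a are the exceptions.

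None of the 42 genes differed between BIT and WT mice at an adjusted p below 0.05 (limma-voom with quantile normalization, Benjamini-Hochberg adjustment over all genes tested). Over all 16105 genes the share called was 0.137%, or 22 genes. At an unadjusted p below 0.05 there was 1 of 42 genes, Parp14, where the background was 8.57% of all genes (1380 genes). By the same rule edgeR's quasi-likelihood test gave 2 of the 42 (against 7.44% of all genes) and DESeq2 3 (against 7.21%), and both called none at an adjusted p below 0.05. In no gene did the 3 BIT mice all lie on 1 side of the 3 WT mice on the log2 CPM scale, against 13.3% of all genes. On plain CPM, without normalization beyond the library total, Dtx3l, Gbp2 and Parp14 did not overlap (3 of 42, against 12.8% of all genes). The exact permutation test over the 6 mice gave p values of 0.2 or more for every gene, where 3 mice against 3 cannot go below 0.1.

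The estimated differences were small for most genes and wide in their intervals. The log2 fold change (BIT over WT) was above 0 for 30 of the 42 genes, against 52.3% of all genes tested, and its median was 0.10, against 0.01 for all genes. By edgeR and by DESeq2 it was above 0 for 37 of the 42 (against 48.9% and 49.7%), with medians of 0.21 and 0.22. It ranged from -0.78 (Ifi27l2a) to 1.00 (Rsad2), and 28 of the 42 lay within 1.2-fold either way, as did 69.3% of all genes. The 95% confidence interval held 0 for 41 of the 42, all but Parp14, and lay inside 2-fold in both directions for 26. For the other 16 a 2-fold difference in at least 1 direction was within the interval. The direction depended on single mice. Without BIT mouse 1 the median became -0.20 and 7 of the 42 lay above 0, and without BIT mouse 3 it became 0.34, with 39 above 0. Without WT mouse 1 the median was 0.01, with 23 above 0. Without WT mouse 3 it was 0.07, with 25 above 0 and 0 called.

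**Figure D2:**
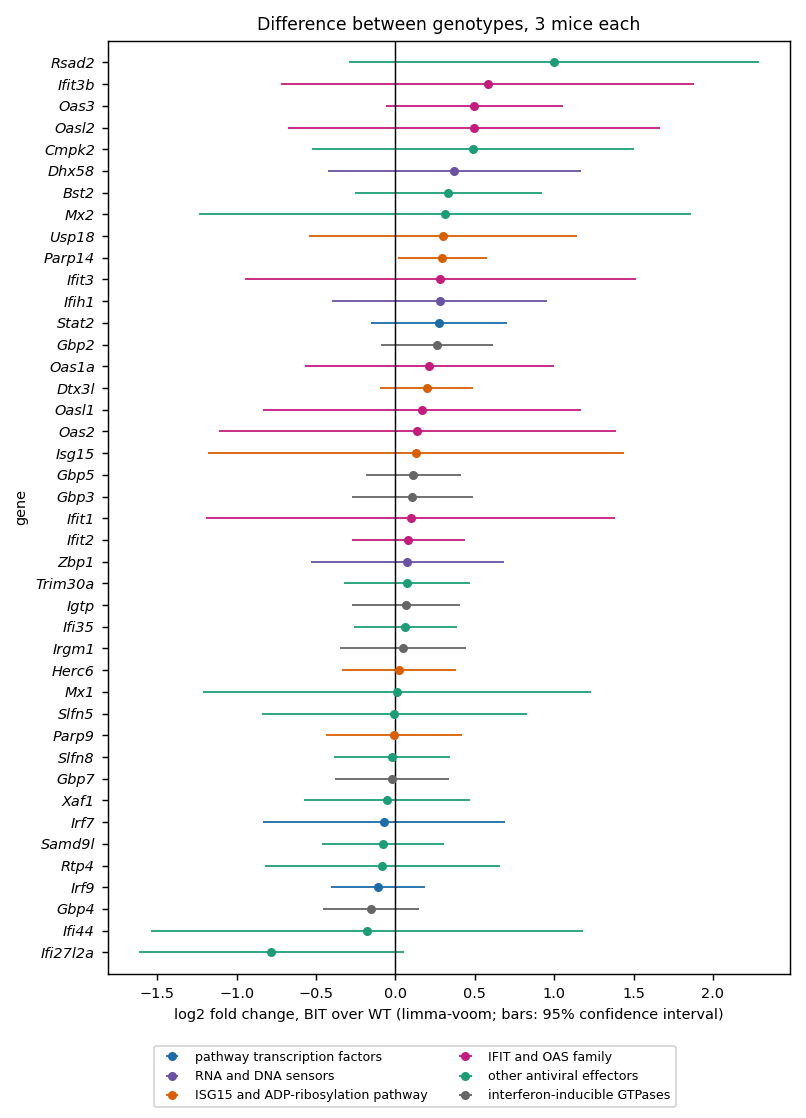
Log2 fold change of each gene between 3 BIT and 3 WT mice (points; limma-voom) with its 95% confidence interval (bars), coloured by role and ordered by size. The points gather around 0, and the interval excludes 0 for Parp14 alone, while intervals reach from about -1 to beyond 1 for genes such as Isg15, Ifit1 and Mx2.

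The 3 transcription factors of the pathway differed in how far they varied. Irf7, which amplifies the response, was at 40.8, 57.3 and 48.2 CPM in WT mice and 85.4, 36.1 and 33.7 CPM in BIT mice. The highest and the 2 lowest values were all from BIT mice, so the genotypes overlapped fully. Irf7 had a log2 fold change of -0.07 (SE 0.34, limma-voom adjusted p = 0.965), and edgeR and DESeq2 turned the sign, at 0.10 and 0.11. Irf9, the DNA-binding partner of Stat2, was steadier, at 94.2, 94.98 and 80.6 CPM in WT mice and 97.6, 83.3 and 78.9 CPM in BIT mice. Its log2 fold change came to -0.11 (SE 0.13, limma-voom adjusted p = 0.831). Stat2 was at 39.2, 41.3 and 38.1 CPM in WT mice and 65.6, 47.2 and 38.9 CPM in BIT mice. Its WT values were nearly level, BIT mouse 1 stood above them, and BIT mouse 3 lay among them. The log2 fold change of Stat2 was 0.28 (SE 0.19, limma-voom adjusted p = 0.714).

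The 3 sensors, Ifih1 and Dhx58, which detect double-stranded RNA, and Zbp1, which binds Z-form nucleic acids, had log2 fold changes of 0.28, 0.37 and 0.07, none past the test. In each of them BIT mouse 1 was the highest of the 6. Ifih1 was at 61.2 CPM in that mouse and at 24.6 to 35.3 CPM in the other 5.

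Among the 6 genes of the ISG15 and ADP-ribosylation pathway, Isg15 and Usp18 varied most. Isg15, a ubiquitin-like protein joined to other proteins, was at 10.3, 21.4 and 9.96 CPM in WT mice and 30.5, 16.2 and 5.82 CPM in BIT mice. Both the highest and the lowest mouse were BIT, and the log2 fold change was 0.13 (SE 0.58, limma-voom adjusted p = 0.964). Usp18, which removes ISG15 and dampens signalling at the receptor, was at 12.5, 20.4 and 20.1 CPM in WT mice and 37.6, 18.9 and 13.0 CPM in BIT mice. Outside BIT mouse 1, the values of both genotypes shared the range from 12.5 to 20.4 CPM. The log2 fold change was 0.30 (SE 0.37, limma-voom adjusted p = 0.840). Dtx3l, an E3 ligase that works with Parp9, was at 315, 298 and 320 CPM in WT mice and 442, 354 and 327 CPM in BIT mice. By CPM every BIT mouse exceeded every WT mouse, but after quantile normalization they overlapped. The log2 fold change of Dtx3l was 0.20 (SE 0.13, limma-voom adjusted p = 0.702). The ADP-ribosyltransferase Parp14, named here because it was the single member at an unadjusted p below 0.05, was at 249, 256 and 277 CPM in WT mice and 387, 326 and 290 CPM in BIT mice. This gave a log2 fold change of 0.30 (SE 0.12, limma-voom adjusted p = 0.559), and after normalization the genotypes overlapped as well. Without WT mouse 3, Parp14 did not reach an unadjusted p below 0.05. Parp9 (-0.01) and the ISG15 ligase Herc6 (0.02) were near 0.

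The 9 genes of the IFIT and OAS families, which bind viral RNA or make the second messenger that activates RNase L, all had log2 fold changes above 0, with a median of 0.21 and none past the test. This count of 9 held under TMM normalization, edgeR and DESeq2, and it fell to 1 of 9 without BIT mouse 1, to 6 without WT mouse 1 (median 0.03) and to 8 without WT mouse 3. Ifit1 was at 30.3, 59.6 and 26.5 CPM in WT mice and 96.7, 35.8 and 18.0 CPM in BIT mice. Ifit3 was at 27.8, 59.3 and 33.1 CPM in WT mice and 116, 39.7 and 23.2 CPM in BIT mice, and its paralog Ifit3b at 4.87, 11.3 and 7.16 CPM and 25.7, 8.67 and 5.50 CPM. The 3 IFIT genes ordered the mice nearly alike, with BIT mouse 1 at the top, WT mouse 2 next and BIT mouse 3 or WT mouse 1 at the bottom. Their log2 fold changes were 0.10 (SE 0.57, limma-voom adjusted p = 0.969) for Ifit1, 0.28 (SE 0.54, adjusted p = 0.907) for Ifit3 and 0.58 (SE 0.57, adjusted p = 0.801) for Ifit3b. Oas3, an oligoadenylate synthetase, was at 68.2, 81.4 and 85.6 CPM in WT mice and 168, 107 and 82.5 CPM in BIT mice. Oasl2, an OAS-like protein, was at 11.3, 20.7 and 15.9 CPM in WT mice and 51.9, 17.0 and 11.3 CPM in BIT mice. For Oas3 both BIT mice 1 and 2 stood above the WT mice, and for Oasl2 only BIT mouse 1 did. Their log2 fold changes were 0.50 (SE 0.24, limma-voom adjusted p = 0.632) and 0.49 (SE 0.52, adjusted p = 0.811). Ifit2, Oas1a, Oas2 and Oasl1 had log2 fold changes between 0.08 and 0.21.

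The 14 other antiviral effectors held both ends of the range, with 7 above 0 and a median log2 fold change of 0.00. This even split rested on the method and on single mice: 11 of the 14 were above 0 by edgeR and by DESeq2 (median 0.13 in both), 13 without WT mouse 2, BIT mouse 2 or BIT mouse 3, and 2 without BIT mouse 1 (median -0.29). Rsad2 (viperin), which makes a chain-terminating nucleotide, was at 8.05, 15.5 and 5.73 CPM in WT mice and 31.4, 22.2 and 8.25 CPM in BIT mice. BIT mice 1 and 2 stood above all WT mice, and BIT mouse 3 lay among them. With a log2 fold change of 1.00 (SE 0.57, limma-voom adjusted p = 0.667) this was the largest positive difference among the 42 genes, and its interval reached from -0.29 to 2.29. Cmpk2, the neighbouring nucleotide kinase gene, was at 11.1, 17.8 and 9.99 CPM in WT mice and 34.4, 15.5 and 10.1 CPM in BIT mice, giving a log2 fold change of 0.49 (SE 0.45, limma-voom adjusted p = 0.782). Ifi27l2a, a small membrane protein of mitochondria and the nuclear envelope, went the other way. It was at 40.4, 72.0 and 39.7 CPM in WT mice and 49.2, 24.9 and 19.5 CPM in BIT mice, so that BIT mice 2 and 3 lay below all WT mice and BIT mouse 1 among them. Its log2 fold change of -0.78 (SE 0.37, limma-voom adjusted p = 0.616) kept its sign with each mouse left out, between -1.19 and -0.45. That of Rsad2 kept its sign as well, between 0.55 and 1.58.

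Of the rest of these effectors, 5 were taken for their spread, their difference or their level. Mx2, a dynamin-like GTPase, was at 1.74, 3.27 and 1.88 CPM in WT mice and 6.44, 2.60 and 1.01 CPM in BIT mice, with a log2 fold change of 0.31 (SE 0.68, limma-voom adjusted p = 0.917). Ifi44 was at 1.00, 2.06 and 1.90 CPM in WT mice and 3.35, 0.808 and 0.747 CPM in BIT mice, with a log2 fold change of -0.18 (SE 0.60, limma-voom adjusted p = 0.951). In both genes the highest and the lowest mouse were BIT. Rtp4 was at 33.8, 46.8 and 29.2 CPM in WT mice and 57.6, 30.6 and 23.9 CPM in BIT mice, giving a log2 fold change of -0.08 (SE 0.33, limma-voom adjusted p = 0.960). Samd9l, a restriction factor that stops translation, was at 191, 252 and 213 CPM in WT mice and 262, 189 and 200 CPM in BIT mice. Slfn8, of the Schlafen family, was at 180, 193 and 178 CPM in WT mice and 240, 171 and 164 CPM in BIT mice. For these abundant genes the highest mouse was at most 1.55-fold above the lowest within a genotype after normalization, and the log2 fold changes were -0.08 (SE 0.17, limma-voom adjusted p = 0.917) for Samd9l and -0.02 (SE 0.16, adjusted p = 0.976) for Slfn8. The signs of Slfn8, Rtp4 and Ifi44 turned under edgeR and DESeq2, and that of Slfn8 under TMM normalization as well. The remaining 6 (Mx1, Bst2, Ifi35, Xaf1, Trim30a and Slfn5) had log2 fold changes between -0.06 and 0.33.

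The 7 interferon-inducible GTPases, which attack the vacuoles of intracellular pathogens, were among the most even genes. Gbp2 was at 133, 144 and 129 CPM in WT mice and 209, 161 and 145 CPM in BIT mice. By CPM BIT mouse 3 was nearly level with WT mouse 2 and the other BIT mice stood above. After normalization the genotypes overlapped, with BIT mouse 2 level with WT mouse 2 and BIT mouse 3 below it. The log2 fold change was 0.26 (SE 0.16, limma-voom adjusted p = 0.678). Gbp4 was at 113, 129 and 147 CPM in WT mice and 130, 101 and 132 CPM in BIT mice, giving a log2 fold change of -0.15 (SE 0.13, limma-voom adjusted p = 0.770). After normalization, Gbp4 alone among the 42 was highest in WT mouse 3. Gbp3, Gbp5, Gbp7, Igtp and Irgm1 had log2 fold changes between -0.02 and 0.11.

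The spread among mice of a genotype exceeded the genotype difference almost throughout. The SD of log2 CPM among the 3 WT mice had a median of 0.29 over the 42 genes, against 0.20 over all genes tested. Among the 3 BIT mice it had a median of 0.57, against 0.19. For 40 of the 42 genes the difference between the genotype means was smaller than the larger of both SDs, against 72.7% of all genes. The SD among BIT mice was above that among WT mice for 41 of the 42, the exception being Samd9l, where the share over all genes was 46.7%. Whether the genotypes differ in spread was not tested. Leaving out BIT mouse 1 lowered the median SD among BIT mice to 0.21, below that of WT mice. Leaving out WT mouse 2 lowered the median among WT mice to 0.16, and leaving out WT mouse 3 raised it to 0.36.

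In fold terms, the highest of the 3 BIT mice exceeded the lowest by a median of 2.15-fold over the 42 genes, where the median over all genes tested was 1.28-fold. The difference was over 2-fold for 23 of the 42 (54.8%, against 16.4% of all genes). Among WT mice the median was 1.45-fold, against 1.302-fold, and 8 of the 42 were over 2-fold (19.0%, against 15.4%). The widest were Mx2, with 8.50-fold among BIT mice, Ifi44 with 6.28-fold, Isg15 with 5.96-fold and Ifit1 with 5.70-fold. The widest among WT mice was Rsad2, with 3.35-fold, and the narrowest was Dtx3l with 1.04-fold. By role, the median among BIT mice was 4.94-fold for the IFIT and OAS family, 2.61-fold for the other antiviral effectors, 2.40-fold for the sensors, 1.79-fold for the transcription factors, 1.58-fold for the ISG15 and ADP-ribosylation pathway and 1.53-fold for the GTPases.

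**Figure D3:**
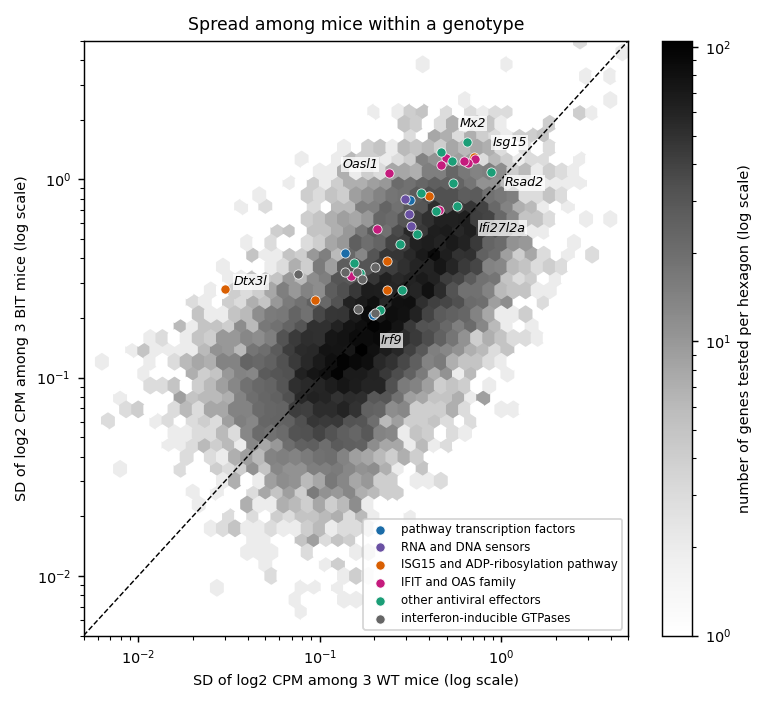
SD of quantile-normalized log2 CPM among 3 WT mice (horizontal) and 3 BIT mice (vertical), both on log axes, with the genes tested as grey hexagons (12 genes with an SD of 0 in a genotype are left out) and the 42 interferon-stimulated genes as coloured points. The dashed line marks equal spread, and 41 of the 42 points lie above it.

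Counting error was far smaller than this spread. Poisson counting alone would give a median SD of 0.03 on the log2 scale at these counts, and 0.17 for Ifi44, the gene with the fewest counts. The SD exceeded the counting error in all 42 genes in both genotypes. The dispersion of a gene in edgeR, which measures the spread beyond counting error, lay above the trend for genes of the same level in 41 of the 42 genes, where the background was 25.8% of all genes. Without BIT mouse 1 this count was 29 of 42. Genes with lower levels varied more. Across the 42 genes, Spearman's rho between mean CPM and the SD was -0.71 among BIT mice and -0.66 among WT mice, and between both SDs it was 0.84. These are descriptions over genes measured in the same 6 libraries.

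Most of the genes ranked the mice in the same way. The ranks given here are on quantile-normalized log2 CPM. On plain CPM, BIT mouse 1 was above WT mouse 2 in Irf9 (97.6 against 94.98 CPM) and in Samd9l (262 against 252 CPM). After normalization, BIT mouse 1 was the highest of the 6 in 38 of the 42 genes. WT mouse 2 was the highest in 3 (Irf9, Ifi27l2a and Samd9l) and WT mouse 3 in 1. BIT mouse 3 was the lowest in 28, WT mouse 1 in 7, WT mouse 3 in 5 and BIT mouse 2 in 2. Within the BIT genotype, mouse 1 was the highest in 42 of 42 genes and mouse 3 the lowest in 37. Within the WT genotype, mouse 2 was the highest in 38. Relative to the mean of the 6 mice, the median gene stood at -0.23, 0.22 and -0.14 (log2) in WT mice and at 0.69, -0.11 and -0.38 in BIT mice, while the median over all genes tested stayed between -0.02 and 0.02 in each mouse. The highest and the lowest of the 6 mice were thus both BIT.

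**Figure D4:**
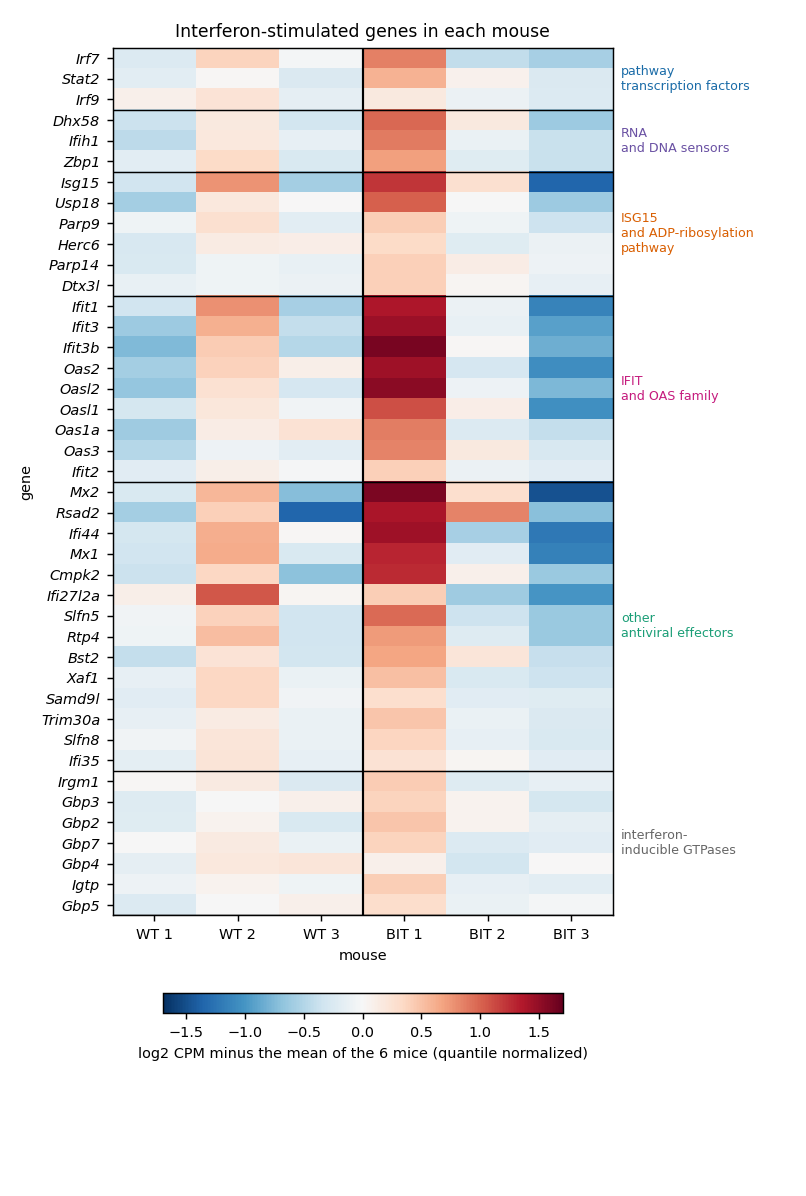
Log2 CPM (quantile normalized) of the 42 genes in each mouse minus the mean of the 6 mice, as colour from blue (lower) to red (higher), with genes grouped by role and ordered by spread. The column of BIT mouse 1 is red in all roles, that of WT mouse 2 is a paler red, and that of BIT mouse 3 is mostly blue, deepest for Mx2 and Isg15.

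With the mean of each genotype removed, the correlation between pairs of the 42 genes over the 6 mice had a median of 0.91 over 861 pairs, against 0.005 over pairs of all genes tested. It was above 0.5 in 95.2% of the pairs, against 23.8%. The first principal component of the 42 genes held 87.3% of their variance. The correlation of a gene with the mean of the other 41 was above 0.9 for 33 genes, and the lowest were Gbp4 (0.38), Gbp5 (0.71), Herc6 (0.76), Irgm1 (0.84) and Rsad2 (0.84). These values rest on 6 mice, with 4 degrees of freedom once the genotype means are removed, and on libraries and scaling that all genes share.

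The other genes of the pathway showed where this ranking of mice was shared and where it was not. Of 10 interferon genes, the 9 type I and type III genes had 0 counts in all 6 libraries, and Ifng was at 0.257 to 1.66 CPM, highest in WT mouse 3. Of 15 receptor and JAK-STAT genes, 14 were tested and none passed an adjusted p of 0.05. At an unadjusted p below 0.05 (limma-voom) there were 3 of the 14, 2 above 0 and 1 below, against 8.57% of all genes. In 5 of the 14 the genotypes did not overlap on log2 CPM, against 13.3%. The 15 genes summed to 2725 to 3049 CPM in WT mice and 3334 to 3440 CPM in BIT mice, where abundant genes weigh most. The median over the 14, relative to the 6 mice, stood between -0.08 and 0.05 in each mouse. None of the 14 correlated above 0.9 with the 42 genes. Ifnar1 and Ifnar2, the type I receptor chains, had correlations of -0.55 and -0.68 with them. Ifngr1, a chain of the interferon-γ receptor, had a log2 fold change of 0.41 (SE 0.12, limma-voom adjusted p = 0.503). None of 6 feedback inhibitors and none of 12 genes of nucleic acid sensing passed the test, and among these 18 genes only Rigi, the RNA sensor RIG-I, correlated above 0.9.

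Of 48 other interferon-induced genes, 46 were tested, and none passed an adjusted p of 0.05. At an unadjusted p below 0.05 there were 3 above 0 and 1 below, where 8.57% of all genes met this rule. Parp11, an ADP-ribosyltransferase, had a log2 fold change of 0.39 (SE 0.11, limma-voom adjusted p = 0.437), and Epsti1 one of -0.30 (SE 0.10, adjusted p = 0.511). By the medians of these 46 genes BIT mouse 1 stood highest, as for the 42, with a median of 0.37 over the list relative to the 6 mice, WT mouse 2 next at 0.16, and BIT mouse 3 lowest at -0.22. In 21 of the 46 (45.7%) the correlation with the 42 genes was above 0.9, against 2.06% of all genes tested. The SD among BIT mice was above that among WT mice in 36 of the 46. The effectors Isg20 (0.97), Eif2ak2 (PKR, 0.97) and Gbp6 (0.99) were among those that followed the 42 closely, while Nlrc5, the activator of MHC-I genes (-0.34), and Ms4a4b (-0.28) did not.

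**Figure D5:**
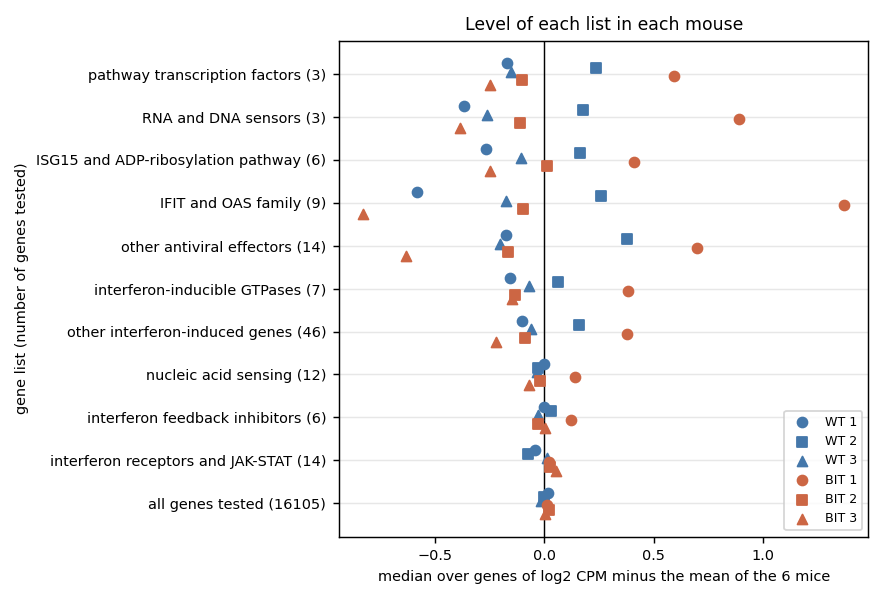
Median over the genes of each list of log2 CPM minus the mean of the 6 mice, with 1 point per mouse and the number of genes tested in brackets. BIT mouse 1 (orange circle) is to the right in all 6 roles and in the other interferon-induced genes, and the points of the receptor list and of all genes tested lie close to 0.

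Values of the libraries that could move with this ranking were compared with it. BIT mouse 1, the highest in the interferon-stimulated genes, had 44755674 counts and 2.98% mitochondrial counts, both between those of other mice. The 6 markers of B cells summed to 32.5, 40.1 and 30.2 CPM in WT mice and 28.7, 31.2 and 24.2 CPM in BIT mice. They were highest in WT mouse 2 and lowest in BIT mouse 3, which were also the highest WT and the lowest BIT mouse in most interferon-stimulated genes. In BIT mouse 1 they were below every WT mouse. The 7 myeloid markers summed to 11.98 to 19.4 CPM in WT mice and 8.30 to 12.3 CPM in BIT mice, with 9.88 CPM in BIT mouse 1. Of the 6 markers of plasmacytoid dendritic cells, the cells that make most type I interferon, Siglech, Klk1 and Cox6a2 averaged 0.063, 0.017 and 0.013 CPM, and the summed level of 164 to 249 CPM came almost wholly from Ccr9 and Pacsin1, which averaged 139 and 58.7 CPM. The sum was 208 to 249 CPM in WT mice and 164 to 175 CPM in BIT mice, with 169 CPM in BIT mouse 1. As it rested on Ccr9 and Pacsin1, it does not measure the content of these cells. Conventional dendritic cell markers (5.26 to 27.9 CPM), γδ T cell markers (4.23 to 5.91 CPM), NK cell markers (81.7 to 166 CPM) and erythroid markers (1.80 to 56.7 CPM) were highest in WT mouse 3, WT mouse 2, WT mouse 3 and BIT mouse 2. Among the 4 NK cell markers the highest single count was 6535, so a single gene gave most of their sum in that library. The sum therefore need not measure the content of NK cells. Eomes, an NK cell marker here, is also listed among the genes of innate memory CD8 T cells below. The part of the cell types behind these markers in the ranking was not tested. In bulk RNA, fewer responding cells and less RNA of these genes per cell cannot be told apart.

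For the genes of innate memory CD8 T cells, 7 of 8 had log2 fold changes above 0, against 52.3% of all genes tested. Il2rb, a chain of the receptors for IL-2 and IL-15, passed the test, with a log2 fold change of 0.77 (SE 0.09, limma-voom adjusted p = 0.025). It was the only 1 of the 8 to pass, where 0.137% of all genes tested did. At an unadjusted p below 0.05 (limma-voom) there were 6 of the 8, all higher in BIT mice, against 8.57% of all genes. In 4 of the 8 the genotypes did not overlap on log2 CPM, against 13.3%. This list was chosen with earlier results of these data known. The median over the 8 genes was -0.43, -0.40 and 0.10 in WT mice and 0.21, 0.21 and 0.24 in BIT mice, so the 3 BIT mice, far apart in the interferon-stimulated genes, were nearly level in this list. WT mouse 3, which does not match its label, lay nearer to the BIT mice than to the other WT mice. Values without it are not given for this list.

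The counting limits what can be said of near-identical genes. In 15 of the 42, among them Ifit1, Ifit3, Ifit3b, Mx1, Mx2, Gbp3, Gbp4, Gbp7 and Slfn8, counts were not whole numbers (tolerance 1e-09) in at least 1 library. The counting divides reads that match several genes between them. Dtx3l and Parp9, and Ifi27l2a and Ifi27, overlap on opposite strands, and Irf9 and Rnf31, Igtp and Irgm2, and Gbp4 and its neighbours Gbp8 and Gbp9 overlap on the same strand. The strand setting of the counting is not given in the sources used here, so reads in the overlaps cannot be assigned with certainty.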

How the data were processed

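Total RNA of sorted CD8 T cells (3 mice per genotype, 37467678 to 52922675 counts per library) was sequenced after removal of ribosomal RNA, as paired reads of 100 bases. The deposited values are expected counts per gene, made by the authors with cutadapt 1.18, STAR 2.7.0f on GRCm39 and RSEM 1.3.1 on Gencode M38 (versions from the submitters' processing notes), and are not normalized. Reads that match several genes are divided between them, and the counts were rounded before testing. The function filterByExpr of edgeR 4.0.16 left 16105 genes, on which limma 3.58.1 in R 4.3.3 (voom after quantile normalization, Benjamini-Hochberg adjustment) compared the genotypes. As a check of the code, the test was run on simulated counts with known changes. That run does not show how often differences as small as most of those reported here would be found. SDs are of quantile-normalized log2 CPM. Quantile normalization gives all libraries 1 distribution, so a shift shared by most genes would not be seen. Alternatives were TMM, edgeR's quasi-likelihood test, DESeq2 1.42.0, other filters and thresholds, a replicate block, replicates 1 and 2 alone, each mouse left out, and plain CPM (added after seeing the data). Positions and exon lengths are from Gencode M39. Members, gene lists and tests were chosen with earlier results of these data known. Full values are given for the 5 members with the largest positive and the 5 with the largest negative log2 fold change, the 5 largest SDs, the 5 highest levels per kilobase, and Irf7, Irf9, Stat2, Isg15 and Usp18 for their roles. Floors for counts cover counting error only, while the 95% confidence intervals of the log2 fold changes include the spread among mice. The labels call the samples individual mice.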

Additional observations from a re-analysis of the deposited data

How the results depend on the processing

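No setting called any of the 42 genes at an adjusted p below 0.05, at adjusted p below 0.1, or at adjusted p below 0.01 with more than 2-fold, nor did the fits with a mouse left out at 0.05. At an unadjusted p below 0.05 the count, 1 in the fit reported, was 2 by edgeR, 3 by DESeq2 (7.14%, against 7.21% of all genes in the same fit), 3 with the replicate block (7.14%, against 12.4%), and 8 with replicates 1 and 2 alone (19.0%, against 14.3%). With each mouse left out it was 0 to 11: 0 without WT mouse 1 or BIT mouse 2, 3 without BIT mouse 1 (7.14%, against 6.88%) and 11 without BIT mouse 3 (26.2%, against 10.8%). It was 1 without WT mouse 2 (2.38%, against 4.78%) and 1 without WT mouse 3 (2.38%, against 11.7%). The gene left without WT mouse 3 was Ifi27l2a, lower in BIT mice, and not Parp14. Genes whose genotypes did not overlap, 0 in the fit reported, numbered 1 under TMM and 1 for edgeR (2.38%, against 13.6% in both), 7 with replicates 1 and 2 alone (16.7%, against 46.6%), 3 on plain CPM and 0 to 9 with each mouse left out, the highest being 9 without BIT mouse 1 (21.4%, against 22.7%) and 6 without BIT mouse 3 (14.3%, against 29.6%). In each of these fits the share lay below that of all genes. The median log2 fold change was 0.12 under TMM, 0.21 by edgeR, 0.22 by DESeq2, 0.18 with the replicate block, and -0.20 to 0.34 with each mouse left out. The median SD ranged from 0.16 to 0.36 among WT mice and from 0.21 to 0.78 among BIT mice with a mouse left out. The count of genes above the dispersion trend was 29 to 42, the lowest without BIT mouse 1, and the likeness stayed within 1.5 times.

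For the 21 genes described one by one, 133 of 147 values outside the leave-one-out fits kept sign and side of the threshold, and 14 reversed. By edgeR and DESeq2 these were Irf7 (0.10 and 0.11), Ifi44 (0.026 and 0.028), Rtp4 (0.035 and 0.038) and Slfn8 (0.067 and 0.071, and 0.037 under TMM). With replicates 1 and 2 alone they were Irf7 (0.15), Ifi44 (0.34), Rtp4 (0.031) and Slfn8 (0.0498), and with the replicate block Ifi44 (0.18). With each mouse left out, 27 of 126 values reversed, in 13 genes: log2 fold changes ranged from -0.046 to 0.90 for Cmpk2, -0.98 to 0.35 for Ifi44, -0.57 to 0.67 for Ifit1, -0.38 to 0.80 for Ifit3, -0.13 to 1.10 for Ifit3b, -0.53 to 0.18 for Irf7, -0.47 to 0.78 for Isg15, -0.45 to 1.09 for Mx2, -0.18 to 0.96 for Oasl2, -0.47 to 0.20 for Rtp4, -0.24 to 0.079 for Samd9l, -0.21 to 0.11 for Slfn8 and -0.16 to 0.65 for Usp18. The cause was not tested.

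The labels give both genotypes replicate numbers 1 to 3. Same-numbered mice had correlations of 0.14, 0.03 and 0.33 between their deviations from the genotype means, not all above 0.1, so the numbers were not treated as pairs, and the replicate block called 0 of the 42. The median SE was 0.26 on the log2 scale, against 0.17 over all genes. In all 42 genes the SD among mice of each genotype was above the SD that counting alone would give.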
